A study of Mus musculus with 12 samples.

Results

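Junctions between the 5′ end of Sμ and the acceptor sequences that the stimulus does not direct switching to were described in splenic B cells that were either WT or 3′IgH CBEs-deleted. In cells stimulated with αCD40/IL4 these were Sγ3, Sγ2b and Sγ2a, and in cells stimulated with LPS/αIgD-dextran they were Sγ1 and Sε. Sα and the 3′IgHRR were counted under both stimuli. Members were chosen by position and by which S regions each stimulus induces. They are 7 of the 14 regions that tile a 300-kb window of chromosome 12 around the IgH constant region genes. They held 303 of the 39213 junctions in the window (0.773%), of which 114 came from αCD40/IL4 and 189 from LPS/αIgD-dextran.

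In CSR-HTGTS-seq, a primer in 5′Sμ (the bait) is extended on genomic DNA across the join, so that each read also holds the partner sequence, named the prey. Deleted cells lacked all 10 CTCF-binding elements at the 3′ end of the IgH locus on both alleles. WT and deleted ES cells were of the TC1 line, from a 129/SV mouse, and every mature B cell of the chimeras made from them in RAG2-deficient blastocysts descended from the ES cells, so each genotype stands for the ES cells from which its chimeras were made. The age of the chimeras and the number of ES clones are not given in the sources used here. B cells were enriched by removal of CD43-positive cells and carried intact AID in both genotypes. Cultures lasted 96 h in the presence of either stimulus, and 3 libraries were made for each of the 4 conditions (WT αCD40/IL4, deleted αCD40/IL4, WT LPS/αIgD-dextran and deleted LPS/αIgD-dextran). The labels do not tie replicates to separate chimeras, so permutation p-values measure the spread between libraries, which may be technical. Fisher's exact tests were run on pooled junctions, each taken as independent, and their p-values cover counting error only.

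In class switch recombination, AID deaminates cytosines in a transcribed S region, and the breaks that follow in Sμ and in a downstream S region are joined with loss of the DNA between them. Each S region has its own I-region promoter, which the stimulus switches on. αCD40 with IL4 induces Sγ1 and Sε, whereas LPS with αIgD-dextran induces Sγ3, Sγ2b and Sγ2a. The 3′IgHRR is the enhancer cluster downstream of Cα that activates most of these promoters. It is not itself an S region, while Sα, the S region of IgA, is mainly used after other stimuli such as TGFβ. AGCT is the canonical motif of AID targeting and is repeated in S regions, which are also rich in G on the nontemplate strand.

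Reads of the prey positions found in the most libraries are shown for the 4 regions in which a position recurred between libraries of the same stimulus, because they show what such joins look like. Lower-case bases come from the Sμ bait and capitals are the first 60 bases of the prey, with bases that both sides share given in capitals. All were deletional joins, read 5′ to 3′ on the strand of IgH transcription, and positions are in the AJ851868/mm9 hybrid coordinates of the files.
Sγ2b, 114547680, WT αCD40/IL4 replicate 2: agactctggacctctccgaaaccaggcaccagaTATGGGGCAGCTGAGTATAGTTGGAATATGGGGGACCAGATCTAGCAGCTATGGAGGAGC
Sγ1, 114571170, WT LPS/αIgD-dextran replicate 3: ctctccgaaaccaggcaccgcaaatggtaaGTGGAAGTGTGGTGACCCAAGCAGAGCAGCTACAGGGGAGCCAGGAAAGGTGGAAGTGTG
Sα, 114501516, WT LPS/αIgD-dextran replicate 2: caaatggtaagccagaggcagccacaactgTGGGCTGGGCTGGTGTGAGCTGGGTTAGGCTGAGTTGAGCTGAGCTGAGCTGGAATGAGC
3′IgHRR, 114466872, WT LPS/αIgD-dextran replicate 2: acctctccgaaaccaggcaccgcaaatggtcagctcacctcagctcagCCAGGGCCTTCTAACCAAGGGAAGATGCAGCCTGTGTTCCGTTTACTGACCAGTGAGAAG
The Sα prey held AGCT 4 times, the Sγ2b prey 2 times, the Sγ1 prey 1 time and the 3′IgHRR prey 0 times. The last 3 lower-case bases of the Sγ2b read and the last 18 of the 3′IgHRR read match neither side and were inserted at the join. The Sγ1, Sα and 3′IgHRR positions shown were each found in WT LPS/αIgD-dextran replicates 2 and 3 alone. Those libraries shared 845 junctions over the window, so this recurrence need not come from separate joins. In Sγ3, Sγ2a and Sε no prey position recurred between libraries of the same stimulus, and the lowest positions were 114598377, 114525617 and 114513294.

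The 3′IgHRR, at chr12:114463001-114496000, has the same coordinates as mm9 up to 114492731, and GENCODE M1 lists 0 genes in that part. The 300 bases with the most junctions are shown as the minus strand of mm9, chr12:114466043-114466342. Capitals mark the first prey base of each of the 9 junctions there, which came from 6 libraries.
3′IgHRR: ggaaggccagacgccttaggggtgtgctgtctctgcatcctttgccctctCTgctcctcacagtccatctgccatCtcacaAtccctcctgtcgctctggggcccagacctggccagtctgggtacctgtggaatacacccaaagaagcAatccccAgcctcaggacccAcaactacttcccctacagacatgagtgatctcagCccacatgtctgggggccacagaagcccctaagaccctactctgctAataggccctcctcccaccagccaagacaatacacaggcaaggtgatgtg
This stretch holds AGCT 0 times on either strand, since the motif is its own reverse complement. Of 309 windows of the same length that tile mm9 from the start of the 300-kb window to 114492731, 75.7% held it.

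Libraries held 1267 to 6097 window junctions each. In deleted αCD40/IL4 replicate 3, 1267 of 3281 junctions lay in the window, the lowest part of any library. Its 3 junctions in the 3′IgHRR were 0.237% of the window and 0.0914% of all junctions. WT LPS/αIgD-dextran replicates 2 and 3 stood apart, sharing 845 junctions with the same prey position, orientation and bait end, which were 17.6% of the junctions of replicate 2 and 14.2% of those of replicate 3. The other pairs of replicates shared between 18 and 134. Only 3 of those 845 lay in member regions, and the main differences that rest on these libraries are also given with them pooled as 1, a choice made after seeing the data. The files hold 4 sequencing runs, in one of which lay replicate 1 of every condition. Replicate 3 of WT αCD40/IL4 and that of deleted αCD40/IL4 were each alone in a run, so genotype and run cannot be told apart there. Shares are in percent of window junctions unless another denominator is named. The αCD40/IL4 lists hold only part of the Sγ1 junctions that the study counts, so every other share of the window after αCD40/IL4 is raised. The extent was not computed here and may differ between genotypes. Intervals are Wilson 95% intervals that cover counting error only.

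With αCD40/IL4, the 5 member regions together took 0.727% ± 0.134 in WT and 0.675% ± 0.176 in deleted cells (SD, n = 3 each). With LPS/αIgD-dextran they took 0.91% ± 0.221 in WT and 0.61% ± 0.0407 in deleted cells (SD, n = 3 each), and the WT libraries lay above the deleted ones (Fisher's exact p = 0.0088). Sγ1 held 94 of the 141 WT junctions in that sum. The call was lost without WT replicate 3, when the difference was -0.181 percentage points in place of -0.3, and outside Sμ the difference was 0.4 in the other direction and did not pass. With WT replicates 2 and 3 pooled it was -0.258, without overlap. Of the 5 member regions under αCD40/IL4, 0 met the call rule, which required libraries that did not overlap and an adjusted Fisher's exact p under 0.05. In that comparison 38.5% of the 13 regions with junctions met it (7.69% with a fall in deleted cells), and 46.2% had libraries that did not overlap. Under LPS/αIgD-dextran 1 of 4 member regions met it, with a fall, where 50% of all 14 regions did (28.6% with a fall) and 57.1% had libraries that did not overlap. The exact permutation test of 3 libraries against 3 cannot give a p under 0.1.

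**Figure D1:**
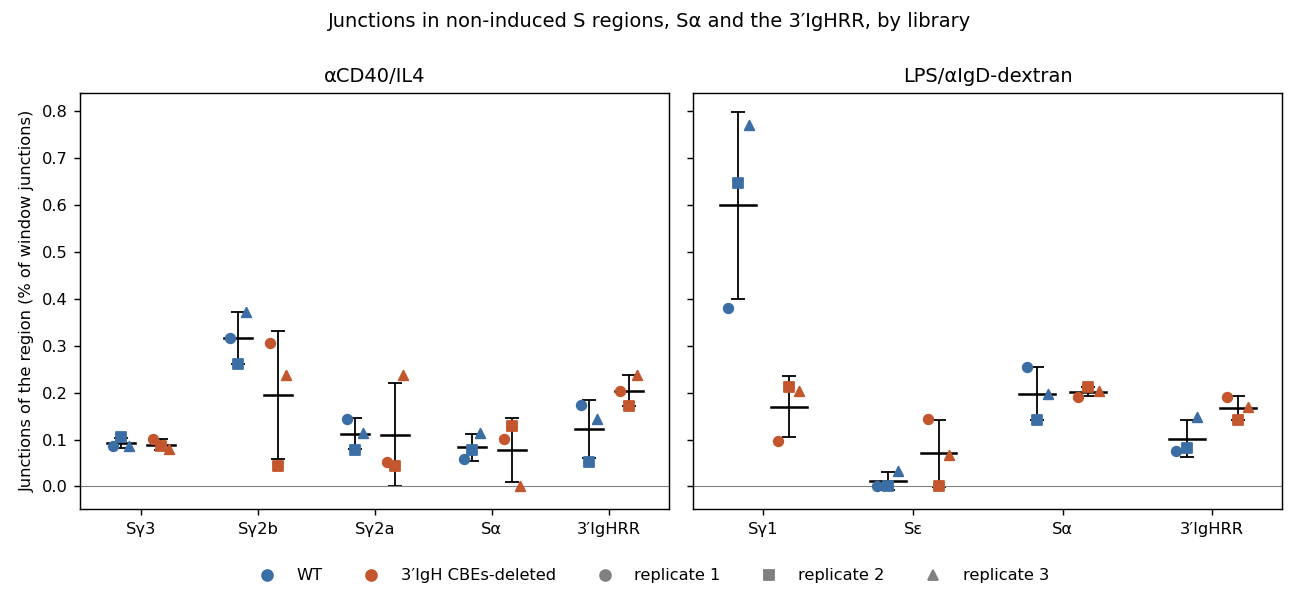
Junctions of each non-induced S region, Sα and the 3′IgHRR as a percentage of window junctions, by library. Points are libraries, symbols are replicate numbers, and black lines with bars are means ± SD (n = 3). Sγ1 after LPS/αIgD-dextran is the region whose WT libraries, at 0.381 to 0.771%, all lie above the deleted ones, at 0.0958 to 0.212%.

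Sγ3, the S region of IgG3, took 0.0863%, 0.104% and 0.0857% of window junctions in the WT αCD40/IL4 replicates 1 to 3 and 0.102%, 0.0859% and 0.0789% in the deleted ones. Each library held 1 to 4 junctions there, and the groups overlapped. The pooled counts were 10 in WT and 5 in deleted cells (exact permutation p = 0.6, adjusted Fisher's exact p = 1). The same region took 14.2% ± 0.364 of junctions in WT cells after LPS/αIgD-dextran (SD, n = 3). The floor of 3 junctions lay at 0.0783 to 0.0863% in the WT and 0.129 to 0.237% in the deleted libraries. A share below the floor of its library rests on fewer than 3 junctions.

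Sγ2b, the S region of IgG2b, held the most junctions of the member regions under αCD40/IL4 in WT cells, whereas in deleted cells it held 10 and the 3′IgHRR 11. There were 11, 10 and 13 junctions in the WT libraries, or 0.316%, 0.261% and 0.372%. The deleted libraries held 6, 1 and 3, or 0.306%, 0.0429% and 0.237%. Replicate 1 of the deleted cells lay within the WT range and the other 2 lay below it. The deleted mean was 61.7% of the WT mean, and the difference was within the spread (exact permutation p = 0.2, adjusted Fisher's exact p = 0.244). Leaving out 1 library moved the difference of -0.121 percentage points to -0.045 without deleted replicate 2, when the deleted mean was 85.8% of WT. In WT cells Sγ2b took more than Sγ3 or Sγ2a in each of the 3 libraries. Sγ2a, the S region of IgG2a, held 5, 3 and 4 junctions in WT and 1, 1 and 3 in deleted libraries, with mean shares of 0.112% ± 0.0328 and 0.11% ± 0.11 (SD, n = 3 each). The groups overlapped (exact permutation p = 1, adjusted Fisher's exact p = 1). After LPS/αIgD-dextran Sγ2a was at 22.9% ± 0.17 in WT and 3.41% ± 0.176 in deleted cells (SD, n = 3 each).

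Sγ1 after LPS/αIgD-dextran was the member region with the most junctions, 108. It is the S region of IgG1, whose promoter responds to IL4 and depends less on the 3′IgHRR enhancers than those of the other Sγ regions. WT libraries held 15, 32 and 47 junctions there, or 0.381%, 0.648% and 0.771%. Deleted libraries held 2, 6 and 6, or 0.0958%, 0.212% and 0.203%. Every WT library was above every deleted one. The mean fell from 0.6% ± 0.199 to 0.17% ± 0.0644 (SD, n = 3 each), to 28.3% of WT (pooled counts 94 and 14, Fisher's exact p adjusted over 14 regions 1.33e-06). The exact permutation p was 0.1, the smallest possible. Induced regions in the same libraries stood at 14.9% of WT for Sγ2a, 57.7% for Sγ3 and 76.8% for Sγ2b. Within the run that held both replicates 1 the shares were 0.381% and 0.0958%, and in the run that held replicates 2 and 3 of both genotypes they were 0.648% and 0.771% against 0.212% and 0.203%. With WT replicates 2 and 3 pooled, the difference was -0.379 percentage points and the libraries still did not overlap.

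The fall of Sγ1 depended on the denominator. Over all junctions of the genome it was kept, at 0.479% ± 0.109 in WT and 0.111% ± 0.0307 in deleted cells (SD, n = 3 each), without overlap (exact permutation p = 0.1, adjusted Fisher's exact p = 8.8e-09). Sμ itself took 40.4% ± 0.623 of window junctions in WT and 68.4% ± 0.308 in deleted LPS/αIgD-dextran cells (SD, n = 3 each). As a share of junctions outside Sμ, Sγ1 stood at 0.633%, 1.1% and 1.29% in WT and 0.3%, 0.667% and 0.648% in deleted libraries, which overlap. That difference did not meet the call rule (exact permutation p = 0.3), although the pooled counts gave an adjusted Fisher's exact p of 0.0416. With preys of at least 100 aligned bases alone the means were 0.759% and 0.194%, but the libraries overlapped.

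Sε, the S region of IgE, was hardly used after LPS/αIgD-dextran. WT libraries held 0, 0 and 2 junctions and deleted ones 3, 0 and 2. The counts of 0 have Wilson upper limits of 0.0976% and 0.0777% in WT replicates 1 and 2, and of 0.135% in deleted replicate 2. The means were 0.0109% ± 0.0189 and 0.0705% ± 0.0719 (SD, n = 3 each), and the groups overlapped (exact permutation p = 0.4, adjusted Fisher's exact p = 0.0914). Without deleted replicate 2, which had 0 junctions there, the region met the call rule with a difference of 0.0947 percentage points. Sε after αCD40/IL4 took 27.9% ± 1.26 in WT cells (SD, n = 3), a share that is raised by the incomplete Sγ1 lists.

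Sα was used at a low level under both stimuli. After αCD40/IL4 it took 0.0575%, 0.0783% and 0.114% in WT and 0.102%, 0.129% and 0% in deleted libraries. The count of 0 in deleted replicate 3 has a Wilson upper limit of 0.302%. After LPS/αIgD-dextran it took 0.254%, 0.142% and 0.197% in WT and 0.192%, 0.212% and 0.203% in deleted libraries. The deleted values lay within the WT range. The genotype difference over both stimuli was -0.00102 percentage points (exact permutation within stimuli, 400 relabellings, p = 0.96, adjusted over 2 regions p = 0.96). Between stimuli the groups did not overlap. The mean after LPS/αIgD-dextran was above that after αCD40/IL4 by 0.114 percentage points in WT and by 0.125 in deleted cells (exact permutation p = 0.1 each, the smallest possible, adjusted over 4 comparisons p = 0.2). With WT replicates 2 and 3 pooled the WT difference was 0.13 (exact permutation p = 0.1). The size of these differences is not known, because the αCD40/IL4 shares are raised by the incomplete Sγ1 lists, and for the same reason the 3′IgHRR is not compared between stimuli.

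The 3′IgHRR held 53 junctions, 29 in WT and 24 in deleted cells, although WT libraries were deeper. After αCD40/IL4 its shares were 0.173%, 0.0522% and 0.143% in WT and 0.204%, 0.172% and 0.237% in deleted libraries. After LPS/αIgD-dextran they were 0.0763%, 0.081% and 0.148% in WT and 0.192%, 0.141% and 0.169% in deleted libraries. In each stimulus 1 deleted library lay just inside the WT range and the other 2 lay above it. In all 6 same-numbered pairs the deleted library was the higher, although the labels do not say that equal numbers are pairs. Neither difference passed alone, with adjusted Fisher's exact p = 0.404 after αCD40/IL4 and 0.344 after LPS/αIgD-dextran, and exact permutation p = 0.2 in both. Over both stimuli the deleted cells were higher by 0.0736 percentage points, at 0.186% against 0.112% (exact permutation within stimuli, 400 relabellings, p = 0.02, adjusted over 2 regions p = 0.04). Blocking on the replicate number gave p = 0.0312 (exact permutation of signs within pairs, the smallest that 64 allow). That test takes equal numbers as pairs under both stimuli, which they were not shown to be. With WT LPS/αIgD-dextran replicates 2 and 3 pooled the difference over both stimuli was 0.0759 (exact permutation p = 0.01). The difference between stimuli of the genotype difference was -0.016 percentage points (exact permutation p = 0.815). Taken over every junction of the genome, the difference over both stimuli was 0.03 percentage points (exact permutation p = 0.23). With preys of at least 100 bases alone it was 0.0399 and did not pass (exact permutation p = 0.535), and after LPS/αIgD-dextran it was then -0.00411. Under both stimuli, mean shares between Sγ3 and Sμ and upstream of Sμ were also higher in deleted cells. Between Sγ3 and Sμ they were 0.0547% in WT and 0.172% in deleted cells after αCD40/IL4, without overlap. After LPS/αIgD-dextran they were 0.167% and 0.27%, with overlap. The test over both stimuli was run for Sα and the 3′IgHRR only, so the share of all regions that would pass it is not known.

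Counted outside Sμ, the 3′IgHRR stood higher in deleted cells under both stimuli and Sα after LPS/αIgD-dextran. The 3′IgHRR was at 0.17% ± 0.0669 in WT and 0.528% ± 0.0785 in deleted cells after LPS/αIgD-dextran (SD, n = 3 each), without overlap (exact permutation p = 0.1, adjusted Fisher's exact p = 0.0121). After αCD40/IL4 it was at 0.203% ± 0.102 and 0.441% ± 0.0548 (SD, n = 3 each), again without overlap (exact permutation p = 0.1, adjusted Fisher's exact p = 0.121). Sα after LPS/αIgD-dextran was at 0.331% ± 0.091 and 0.639% ± 0.0344 (SD, n = 3 each; exact permutation p = 0.1, adjusted Fisher's exact p = 0.044). After αCD40/IL4 Sα libraries overlapped, at 0.138% ± 0.0463 and 0.17% ± 0.151 (SD, n = 3 each; exact permutation p = 0.8). Over both stimuli this scale gave p = 0.005 for the 3′IgHRR, the smallest that 400 relabellings can give, and p = 0.045 for Sα (exact permutation). With WT LPS/αIgD-dextran replicates 2 and 3 pooled these became 0.005 and 0.07, and neither region's LPS/αIgD-dextran libraries overlapped between genotypes. On this scale 50% of regions under αCD40/IL4 and 61.5% under LPS/αIgD-dextran did not overlap between genotypes. The denominator differs between genotypes as well, since Sμ took 39.8% ± 1.05 in WT and 53.8% ± 1.68 in deleted cells after αCD40/IL4 (SD, n = 3 each), and its part in these values was not tested. The αCD40/IL4 totals outside Sμ also lack part of the Sγ1 junctions. Those listed made up 52.4% of such totals in WT and 74.3% in deleted cells. The shortfall may therefore raise the αCD40/IL4 shares unequally between genotypes, which also enters the values over both stimuli. Its extent was not computed.

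**Figure D2:**
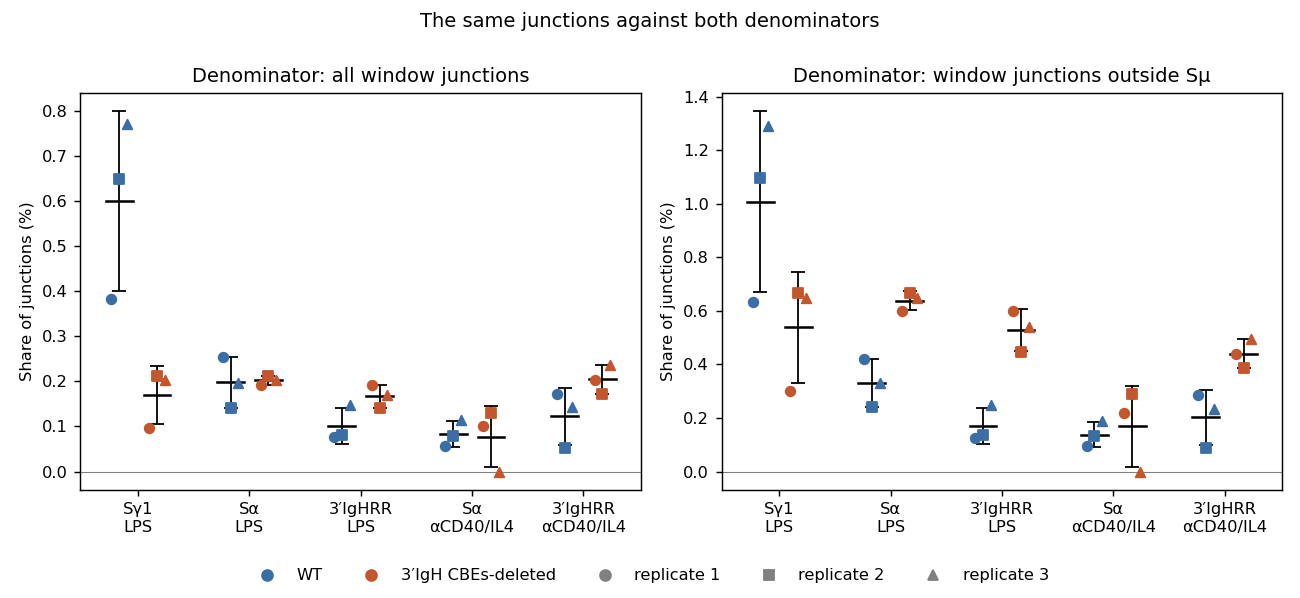
Shares of Sγ1, Sα and the 3′IgHRR by library against all window junctions (left) and against window junctions outside Sμ (right), in percent. Points are libraries and black lines with bars are means ± SD (n = 3). After LPS/αIgD-dextran the Sα libraries overlap on the left and are higher in deleted libraries on the right, at 0.331% against 0.639%, while Sγ1 separates on the left and overlaps on the right.

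Except in Sε, most junctions of the non-induced S regions lay where junctions lie when the same region is induced. Their share in that range was below that of the induced libraries in every region. The range that holds the middle 90% of junctions of the induced region held 10 of 15 in Sγ3, 31 of 44 in Sγ2b, 12 of 17 in Sγ2a, 84 of 108 in Sγ1 and 3 of 7 in Sε. These are 66.7% (41.7 to 84.8%), 70.5% (55.8 to 81.8%), 70.6% (46.9 to 86.7%), 77.8% (69.1 to 84.6%) and 42.9% (15.8 to 75%), against about 90% by construction in the induced libraries. The most used 3-kb bins were 114604001 to 114607000 in Sγ3 (11 of 15 junctions), 114544001 to 114547000 in Sγ2b (19 of 44), 114529001 to 114532000 in Sγ2a (10 of 17) and 114577001 to 114580000 in Sγ1 (45 of 108). In Sε the bins 114514001 to 114517000 and 114517001 to 114520000 held 3 junctions each, of 7. In Sα the bin 114499001 to 114502000 held 42 of 59, from 11 of the 12 libraries.

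Within Sγ1 after LPS/αIgD-dextran, the bins 114571001 to 114574000 and 114574001 to 114577000 met the call rule. They hold part of the junctions behind the call of the whole region. Whether genotypes differ in position within Sγ1 was not tested. The first held 15 junctions in WT and 0 in deleted libraries and the second 26 and 2 (adjusted Fisher's exact p = 0.00419 and 0.00245, without overlap), where 51.6% of the 31 bins with at least 5 junctions met the same rule. The bin 114577001 to 114580000, with 39 and 6, did not meet it, because libraries overlapped. Under αCD40/IL4 no bin of a member region met the rule, where 42.3% of 26 bins did. The nearest was 114544001 to 114547000 in Sγ2b, with 17 junctions in WT and 2 in deleted cells (adjusted Fisher's exact p = 0.0516, without overlap).

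The 3′IgHRR junctions were spread from 114465670 to 114494784, with a cluster at its lower end. The 1638 bases from 114465670 to 114467307, 4.96% of the region, held 23 of its 53 junctions (43.4%), and the next junction lay at 114469989. The cluster held 14 junctions of WT and 9 of deleted cells from 9 libraries, 6 of them after αCD40/IL4 and 17 after LPS/αIgD-dextran. WT LPS/αIgD-dextran replicate 3 gave 7 of them and deleted LPS/αIgD-dextran replicate 1 gave 4. Among those 7, 1 junction at 114467186 repeated another of the same library. The position 114466872 was found there and in WT LPS/αIgD-dextran replicate 2 as well, so the 23 are not all distinct positions. Outside the cluster the libraries held 0 to 4 junctions each. The bin 114466001 to 114469000 was the most used, with 18 junctions.

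**Figure D3:**
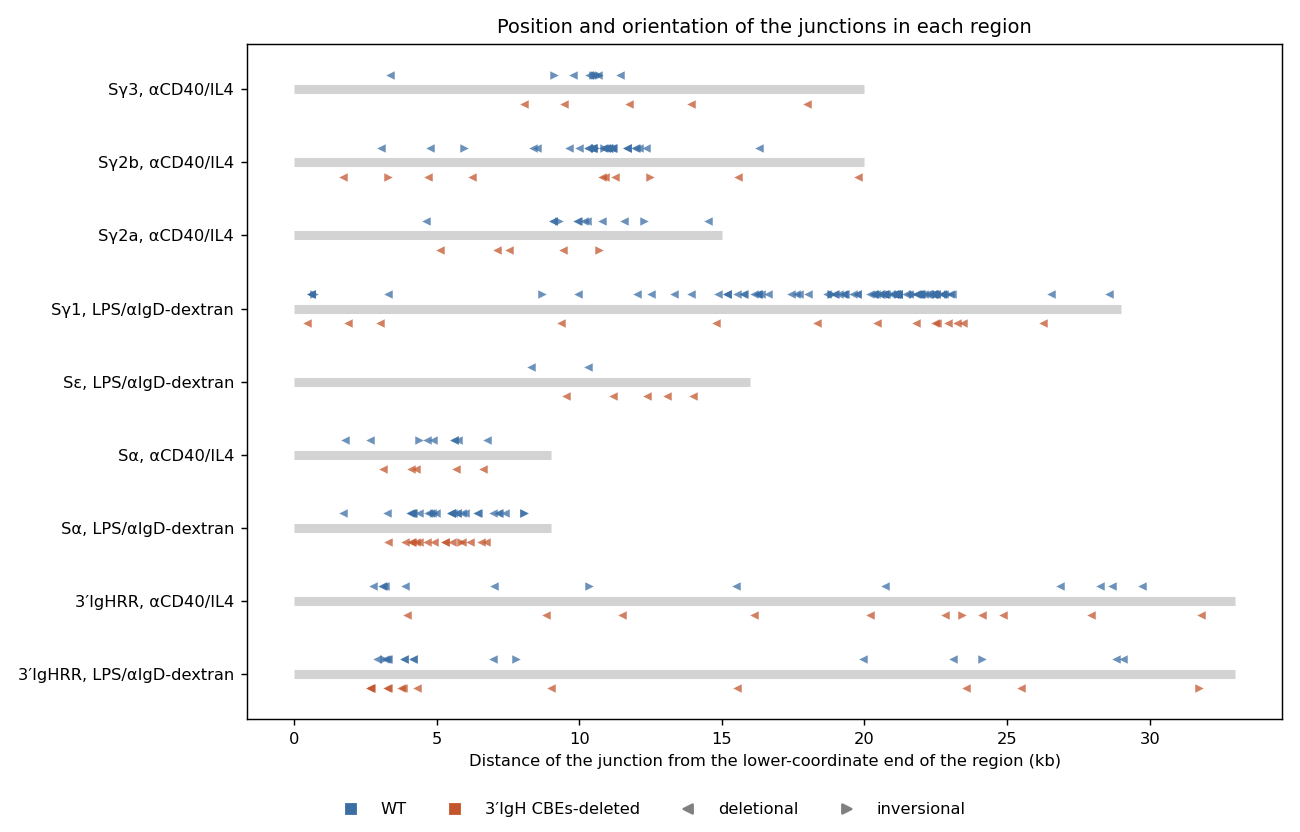
Position of every junction in the non-induced S regions, Sα and the 3′IgHRR, as the distance in kb from the lower-coordinate end of the region. WT junctions are above the grey bar of each region and deleted ones below it, and the direction of the triangle gives the orientation. Most Sγ1 junctions lie in the upper part of its region and most Sα junctions in the middle, and 23 of the 53 3′IgHRR junctions lie in a cluster near its lower end.

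A junction is deletional when the prey keeps the orientation of switching and inversional when it is turned. In the member regions 36 of 303 junctions were inversional (11.9%, 8.71 to 16%), against 11.1% (10.6 to 11.5%) of 19748 in the induced S regions of the same libraries. Sγ3 after αCD40/IL4 had 5 inversional junctions of 10 in WT and 0 of 5 in deleted cells (Fisher's exact p = 0.101). Sγ1 after LPS/αIgD-dextran had 11 of 94 in WT and 0 of 14 in deleted cells (Fisher's exact p = 0.353). Over all members the WT and deleted shares were 16.7% and 11.1% after αCD40/IL4 (Fisher's exact p = 0.576) and 12.1% and 4.17% after LPS/αIgD-dextran (Fisher's exact p = 0.165). Without WT LPS/αIgD-dextran replicate 3 the latter difference was -14.1 percentage points (Fisher's exact p = 0.0252, not adjusted). Over all 6 libraries the groups overlapped (exact permutation p = 0.2). The induced S regions, in contrast, were more often inversional in deleted cells, at 18.8% against 9.52% after αCD40/IL4 and 12.6% against 9.72% after LPS/αIgD-dextran. That the member regions differ from them in this respect was not tested.

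Joins were read as microhomology where bait and prey share bases at the junction, direct where they meet without overlap, and insertions where bases of neither lie between them. Member junctions had microhomology in 56.4% (50.8 to 61.9%), direct joins in 20.1% and insertions in 23.4%. Induced S regions had 56.3% (55.6 to 57%), 23.9% and 19.8%. By region, microhomology was seen in 3 of 15 junctions in Sγ3, 5 of 17 in Sγ2a and 21 of 44 in Sγ2b under αCD40/IL4, and in 73 of 108 in Sγ1 and 3 of 7 in Sε after LPS/αIgD-dextran. The same regions when induced were at 56% for Sγ3, 57.2% for Sγ2a, 56.9% for Sγ2b, 56.3% for Sγ1 and 55.1% for Sε. Sα had it in 11 of 14 after αCD40/IL4 and 21 of 45 after LPS/αIgD-dextran, and the 3′IgHRR in 34 of 53. In no member region did the microhomology share pass between genotypes (adjusted Fisher's exact p = 1 in each). Direct joins over all member regions after αCD40/IL4 were 23 of 78 in WT and 3 of 36 in deleted cells, or 29.5% and 8.33%, without overlap (Fisher's exact p = 0.0153, not adjusted). Region by region the adjusted p was at least 0.745, and after LPS/αIgD-dextran direct joins were 27 of 141 and 8 of 48 (Fisher's exact p = 0.831).

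Insertions of 10 or more bases were seen in 6 of the 53 3′IgHRR junctions (11.3%, 5.29 to 22.6%), at 5 positions and in 4 libraries. They made up 1.56% (1.4 to 1.74%) of joins to induced S regions, 2.38% of joins within Sμ and 1.69% of joins to Sα. In the non-induced S regions they were 5 of 191. Insertions of 11 and 10 bases lay among the 17 Sγ2a junctions, so long insertions were not particular to the 3′IgHRR. The pair at 114466872, the position shown above, came from WT LPS/αIgD-dextran replicates 2 and 3. Their insertions were 18 and 14 bases long and ended in the same 14 bases, with AGCT 2 times in the first and 1 time in the second. The bait ended at 114669213 in the first and 114669209 in the second, as far apart as the insertions differ in length. Whether these reads come from 1 join, which the count of 6 would then hold 2 times, was not tested.

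The preys of the S regions and of the 3′IgHRR differed in base composition, a readout taken from the deposited reads with no test. Over the first 60 bases of preys at least that long, AGCT was present in 40 of 47 Sα preys (85.1%, 72.3 to 92.6%), 33 of 39 in non-induced Sγ2b (84.6%, 70.3 to 92.8%), 10 of 12 in Sγ2a, 10 of 14 in Sγ3, 66 of 90 in Sγ1 (73.3%, 63.4 to 81.4%) and 2 of 5 in Sε. When induced, the same regions were at 91.4% for Sγ2b, 78.2% for Sγ2a, 87.4% for Sγ3, 80.8% for Sγ1 and 87.4% for Sε. In the 3′IgHRR it was present in 12 of 45 (26.7%, 16 to 41%), and in preys outside the window in 24.5% (23.2 to 25.8%). The read is on the nontemplate strand in a deletional join, and the mean share of G there was 23.2% ± 8.78 in the 3′IgHRR (SD over 40 preys), 39.5% ± 8.14 in Sα (SD over 42) and 37.3% ± 6.7 in non-induced Sγ1 (SD over 81). Outside the window it was 24.3% over 1920 preys of the same alignment strand, which need not be the nontemplate strand there.

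**Figure D4:**
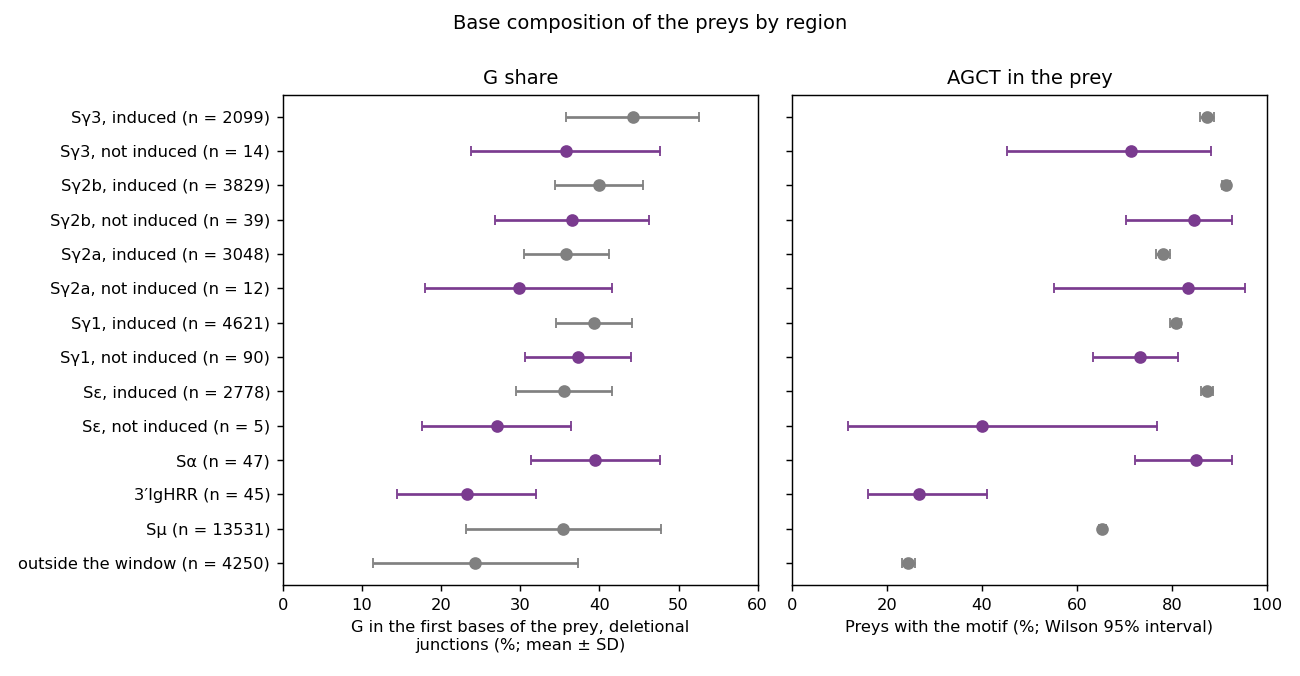
Share of G over the first 60 prey bases of deletional joins (left, mean ± SD over preys, in percent) and share of preys with AGCT in those bases (right, with Wilson 95% intervals, in percent), with the number of preys in the right panel beside each region. Purple points are non-induced S regions, Sα and the 3′IgHRR, and grey points are the comparison sets. Outside the window the left panel takes preys of the same alignment strand, which need not be deletional joins. The 3′IgHRR lies beside preys from outside the window, at 26.7% and 24.5% with AGCT, and Sα lies with the S regions at 85.1%.

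The fit of each prey to the genome and the recurrence of junctions between libraries were also read, since the counts are small. Prey alignments had a median identity of 100% in Sγ3, Sγ2b, Sγ2a and Sε, 99.3% in Sγ1 after LPS/αIgD-dextran, 99.5% in Sα after LPS/αIgD-dextran and 98.5% in the 3′IgHRR after LPS/αIgD-dextran. For Sγ1 when induced the median was 100%. S regions resemble one another, and how often a prey was placed in the wrong one was not tested. Of the 303 junctions, 18 had the same prey position, orientation and bait end as a junction in another library. For 7 of these the other library had the other stimulus, and for 1 of the 7, in Sγ1 of WT LPS/αIgD-dextran replicate 1, it lay in the same run. Without that junction the Sγ1 difference was -0.421 percentage points, and the libraries did not overlap. The Sγ2b join shown above recurred in all 3 WT αCD40/IL4 libraries, from 3 different runs, with the same 3 inserted bases in each.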

How the data were processed

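CSR-HTGTS-seq libraries from genomic DNA of 12 stimulated splenic B cell cultures were amplified by the authors from a 5′Sμ primer, processed with their pipeline, which per the labels used Bowtie2 and mm9, mapped to the AJ851868/mm9 hybrid genome and cleared of duplicates. The version of Bowtie2 is not given in the sources used here. The deposited lists give 1 row per junction with coordinates, orientation, read positions and quality scores set by the authors, without normalization. The lists of αCD40/IL4 libraries hold only part of the Sγ1 junctions that the study counts, which lowers their window totals and raises the shares of all other regions.

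From these lists junctions were counted per region, and shares taken over the window. Region members, boundaries, lists and tests were chosen with earlier results of these data known. Named were the 3-kb bin with the most junctions in each region and the prey position found in the most libraries. Genotypes were compared by exact permutation tests over libraries (two-sided), by Fisher's exact test on pooled junctions with Benjamini-Hochberg adjustment over all regions or bins, and as blocks of replicate number. Deviations of same-numbered WT and deleted libraries from their group means correlated at 0.442, 0.201 and 0.394 after LPS/αIgD-dextran and at 0.0667, 0.746 and 0.143 after αCD40/IL4, over 10 and 11 regions. After LPS/αIgD-dextran each WT library correlated most with the deleted library of its own number, and after αCD40/IL4 not every one did. Replicate numbers come from the labels, which do not say that equal numbers are pairs, so pairing was not shown under either stimulus.

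A prey was taken as equal to mm9 where at least 90% of its first 30 bases matched. Depth in the window was 1267 to 6097 junctions, and 3 junctions were taken as the floor. The bin test was tested on simulated data. Alternatives covered the denominator, boundaries, orientation, repeated positions, prey length, quality marks, carry-over within runs and each library left out. Statistics were computed in scipy 1.17.1 and numpy 2.4.6 under Python 3.11.15, with tables in pandas 2.3.3 and figures in matplotlib 3.10.9.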

Additional observations from a re-analysis of the deposited data

How the results depend on the processing

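Across 37 results and 419 alternatives, 344 alternatives kept the direction and the side of the threshold. After αCD40/IL4, the differences of Sγ2b and of the 3′IgHRR, neither past the threshold, kept their direction in all 18 alternatives run for each, with sizes that moved by over 1.5 times when a library was left out. Differences below are deleted minus WT, in percentage points, and where no cause is named the cause was not tested.

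With the share taken outside Sμ, the differences after αCD40/IL4 turned to 0.0316 for Sα, 0.0486 for Sγ2a, 0.0396 for Sγ3 and 0.251 for all member regions, none past the threshold. After LPS/αIgD-dextran, all member regions turned to 0.400, Sγ1 was no longer called at -0.469, and the 3′IgHRR and Sα became called at 0.358 and 0.308. Over both stimuli Sα turned to 0.17, of which the αCD40/IL4 part rests on the incomplete Sγ1 lists. The change of the 3′IgHRR between stimuli in deleted cells turned to 0.0877 on this scale, which for that result was chosen after seeing the data. Leaving out also the sequence below the 3′IgHRR, another choice made after seeing the data, gave 0.0401 for Sα, 0.0596 for Sγ2a, 0.0488 for Sγ3 and 0.319 for all member regions after αCD40/IL4, and 0.407 for the 3′IgHRR, 0.367 for Sα, -0.42 for Sγ1 and 0.577 for all member regions after LPS/αIgD-dextran. Genome-wide, Sα after LPS/αIgD-dextran was at -0.029, and the 3′IgHRR over both stimuli was no longer called at 0.0300. Without Sγ1 in the denominator, Sγ2a and Sγ3 after αCD40/IL4 were at 0.00495 and 0.00063.

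With deletional junctions alone, Sα, Sγ2a, Sγ3 and all member regions after αCD40/IL4 were at 0.0167, 0.00392, 0.0651 and 0.0865, and all member regions after LPS/αIgD-dextran lost their call at -0.203. With preys of at least 100 bases, Sα after αCD40/IL4 was at 0.0208, and after LPS/αIgD-dextran the 3′IgHRR was at -0.00411, Sα at -0.0416 and Sγ1 no longer called at -0.564. Over both stimuli the 3′IgHRR was then no longer called at 0.0399. The inversional share of the 3′IgHRR after αCD40/IL4 was then at -12.5. With regions narrowed by 2 kb, Sα and Sγ2a after αCD40/IL4 were at 0.00224 and 0.00766, and with the border of Sα moved Sα was at 0.00785. With each prey position counted once, Sα after LPS/αIgD-dextran was at -0.00942, and with WT replicates 2 and 3 pooled, chosen after seeing the data, it was at -0.0112. Without quality-marked junctions all member regions after LPS/αIgD-dextran lost their call at -0.306.

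With the replicate number as a block, no call of a region share changed, and the Sγ1 difference after LPS/αIgD-dextran stayed at -0.43. Over both stimuli the 3′IgHRR stayed called at 0.0736. The block turned the inversional share of Sγ2a and of the 3′IgHRR after αCD40/IL4 to -8.33 and -5.56, and the microhomology share of Sγ2a to -3.89.

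Leaving out 1 library at a time gave these ranges of share differences after αCD40/IL4: -0.0324 to 0.032 for Sα, -0.0652 to 0.0317 for Sγ2a, -0.00976 to 0.00291 for Sγ3, -0.177 to -0.045 for Sγ2b, 0.0464 to 0.107 for the 3′IgHRR and -0.127 to 0.0504 for all member regions. After LPS/αIgD-dextran they were -0.0235 to 0.0328 for Sα, 0.0229 to 0.0947 for Sε, called without deleted replicate 2, -0.399 to -0.181 for all member regions, not called without WT replicate 3, and -0.539 to -0.345 for Sγ1, called throughout. Over both stimuli they were -0.015 to 0.0182 for Sα and 0.056 to 0.0861 for the 3′IgHRR, called throughout. Inversional shares ranged from -0.654 to 16.8 for Sγ2b, -16.7 to 8.89 for Sγ2a and -7.69 to 9.09 for the 3′IgHRR after αCD40/IL4, and from -14.1 to -4.00 for all member regions after LPS/αIgD-dextran, with a Fisher's exact p under the threshold on pooled junctions without WT replicate 3. Microhomology shares ranged from -35.7 to 25 for Sγ2b, -25 to 25 for Sγ2a and -18.2 to 31.8 for the 3′IgHRR after αCD40/IL4, and from -3.46 to 21.5 for Sγ1, -14.9 to 1.72 for Sα and -7.19 to 7.36 for all member regions after LPS/αIgD-dextran.

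Depth limits every region here, since the floor of 3 junctions was 0.0492 to 0.237% of a library and most libraries held fewer than 10 junctions in a region.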
